A study of Mus musculus with 15 samples.

Results

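The genes described here are Piezo1, Piezo2, Asic1, Asic2, Asic3 and Stoml3, which encode channels for force and acid and a stomatin protein that modulates them. They were taken as the rows of the deposited count table whose Ensembl identifiers carry these mouse symbols, and all 6 were found among 39179 genes. The levels come from whole dorsal root ganglia at lumbar levels 4 to 6, the clusters of sensory neurons that serve the hind limb, of 15 mice aged 3 to 6 months on a mixed, mainly C57bl6 background. Knockout mice were Wnt1-Cre; mirflox/flox, in which a Cre recombinase driven by Wnt1 removes the floxed microRNA-183 cluster from cells of the neural crest, the source of both the neurons and the glia of the ganglion. Control mice carried Wnt1-Cre alone or were wild type (wt), and the labels name no floxed allele in them. The naive groups held 5 control animals (replicates 1, 2, 3 and 6 Wnt1-Cre, 7 wt) and 4 knockout animals (4, 5, 8 and 9). After spared nerve injury (SNI), a cut through 2 branches of the sciatic nerve with the sural branch left intact, there were 3 control animals (15 Wnt1-Cre, 18 and 23 wt) and 3 knockout animals (13, 19 and 21). Each animal gave 1 library, so genotype within the injured controls is 1 animal against 2. The rows of the microRNA precursors Mir183, Mir96 and Mir182 held 3 counts in all, since such libraries do not capture these short RNAs, so they do not check the deletion.

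Piezo1 and Piezo2 are large channels that open when the membrane is stretched. Piezo2 is the main touch and proprioception channel of sensory neurons, while Piezo1 is best known from blood vessels and red blood cells. The acid-sensing ion channels Asic1, Asic2 and Asic3 are sodium channels of the degenerin family that open when the fluid outside the cell turns acidic, and they assemble as trimers of the same or mixed subunits. Asic3 is the subunit most closely tied to sensory neurons and to pain from muscle and inflamed tissue. Stoml3 is a membrane protein that makes Piezo channels more sensitive to force.

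The microRNAs removed in the knockout act by pairing their seed, bases 2 to 8, with the 3′ UTR of a messenger RNA, so the seeds are shown with the 1 site found in these genes. The mature sequences are from RefSeq on GRCm38.p6, all on the minus strand of chromosome 6, with the seed in capitals.
mmu-miR-183-5p: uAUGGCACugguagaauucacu
mmu-miR-96-5p: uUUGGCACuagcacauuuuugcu
mmu-miR-182-5p: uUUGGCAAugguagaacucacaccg
They lie at chr6:30169711-30169732, chr6:30169506-30169528 and chr6:30165962-30165986. The seeds of miR-96-5p and miR-182-5p share their first 6 bases, and the seeds of miR-183-5p and miR-96-5p share their last 6.

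The longest annotated 3′ UTR of each gene (GENCODE M21) was read in the sense direction for the 8mer of each microRNA, which is the complement of the seed followed by A.
8mer of mmu-miR-183-5p: GTGCCATA
8mer of mmu-miR-96-5p: GTGCCAAA
8mer of mmu-miR-182-5p: TTGCCAAA
Shorter sites were the 8mer without its last letter, which matches the full seed, and the 8mer without its first letter, which is the same for miR-96-5p and miR-182-5p. Each longer site contains the shorter ones. None of the 6 genes held an 8mer or a full seed match. Asic2 alone held a site, the weakest of these kinds, 140 to 146 bases into a 3′ UTR of 888 bases at chr11:80880911-80880917, minus strand, where the capitals mark the 7 matching bases.
Asic2 site: cgaacttcTGCCAAAcctcacct
Because the letters are the same for both microRNAs, 1 stretch counts for miR-96-5p and miR-182-5p. Of 14451 tested genes with an annotated 3′ UTR, 9.33% held an 8mer, 26.8% an 8mer or full seed match, and 34.3% a site of any of these kinds. The 3′ UTRs searched were 284 bases long for Piezo1, 1335 for Piezo2, 1990 for Asic1, 210 for Asic3 and 850 for Stoml3, against a median of 1194 over tested genes. A match, or the lack of one, describes these letters only.

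Totals ran from 7.59 to 10.8 M counts in 14 libraries and were 5.25 M in control SNI replicate 23. That library also stood apart in its mitochondrial share, 7.43% of counts against 2.26 to 3.60% in the others, so the comparisons that use the injured controls are also given without it for the members whose values moved most. Sensory neuron genes (Prph, Tubb3, Uchl1, Rbfox3, Avil, Isl1, Pou4f1 and Snap25) had a summed level of 7490 to 9801 CPM (counts scaled to the library total with edgeR factors) in every library, and none was at 0. Nothing in the labels ties a library to a run or day, and the naive animals fall into 2 ranges of animal number, 1041 to 1056 and 1079 to 1082. Within each range the control animals carry the lower numbers, so genotype and number cannot be told apart there. All injured animals carry lower numbers than the naive animals, 948 to 956 in the knockout and 974 to 976 in the control group. In both comparisons of injured with naive animals, injury and whatever the numbers stand for cannot be told apart. Each number belongs to 1 animal, so p values measure the spread between animals within a group as labelled.

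Levels were compared between genes as CPM per kilobase of merged exons. In control naive ganglia Asic3 had the highest level, 45.6 ± 1.87 CPM per kb (SD, n = 5), above 94.1% of 14510 tested protein-coding genes. Piezo2 followed at 32.9 ± 3.70, Asic2 at 16.9 ± 1.81 and Asic1 at 11.2 ± 1.52, which lay above 91.1, 80.9 and 71.7% of those genes. Piezo1 was far lower, at 1.10 ± 0.0985 CPM per kb, above 17.1% of them. The ranges of neighbours in this order did not overlap in control naive ganglia, with Asic3 from 43.5 to 48.2 and Piezo2 from 29.5 to 37.9 CPM per kb.

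The order of Asic3 and Piezo2 depended on the length used and on the group. With the length of the longest transcript, Piezo2 stood at 52.7 and Asic3 at 50.0 CPM per kb in control naive ganglia, so these 2 genes cannot be ranked. In knockout naive ganglia they met at 26.7 ± 3.90 for Asic3 and 26.0 ± 1.75 for Piezo2 (SD, n = 4), and in knockout SNI ganglia at 28.8 ± 0.414 and 27.9 ± 3.76 (n = 3). Asic2, Asic1 and Piezo1 kept their places by mean in all 4 groups under both lengths, and on merged exons Asic3 and Piezo2 were the only neighbours whose libraries overlapped in any group.

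**Figure D1:**
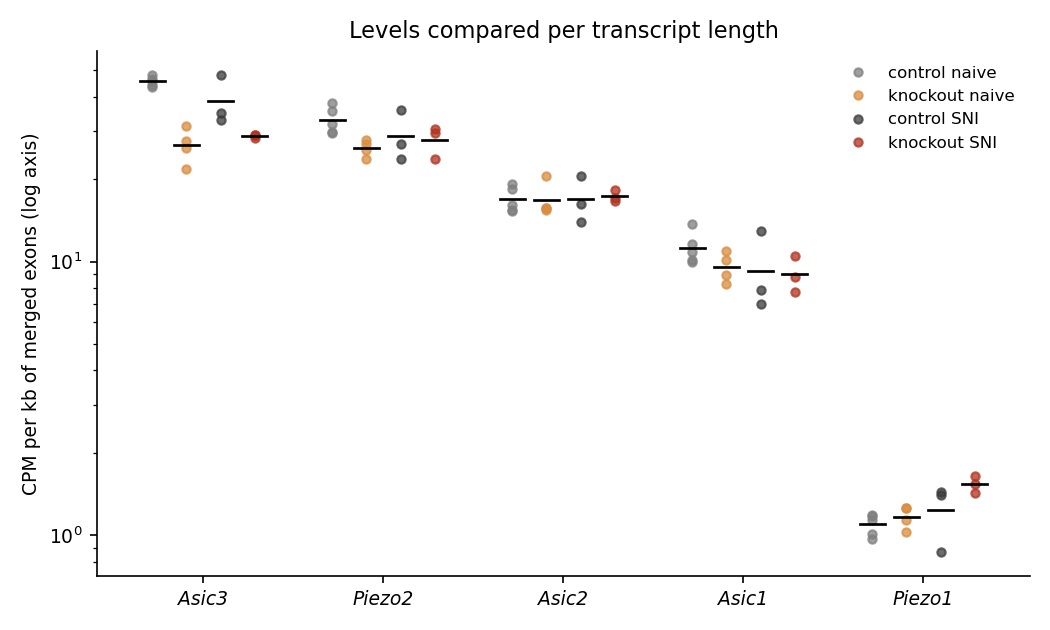
Level of the 5 genes tested, in CPM per kb of merged exons on a log axis. Points are libraries, coloured by group, and black lines are group means. Asic3 stands at 45.6 CPM per kb in control naive ganglia and meets Piezo2 near 26 in knockout naive ganglia, and Piezo1 lies at 1.10 to 1.54.

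Stoml3 was at the edge of detection. It had 14 counts over all 15 libraries, in 7 of them and never more than 3 in 1 library. By group there were 8 counts in 5 control naive libraries, 2 in 4 knockout naive, 2 in 3 control SNI and 2 in 3 knockout SNI libraries. Pooled, this is 0.0987 CPM (exact Poisson 95% interval 0.0540 to 0.166, counting error only). A count of 0 allows a level of 0.273 to 0.647 CPM, depending on the library, so no difference between groups was detectable at this depth. The gene did not pass the filter on low counts and was not tested, and no fold is given. The 5 other members passed.

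Its relatives of the stomatin family were well covered. In control naive ganglia Stom, the founding member, had 31.8 ± 2.68 CPM, Stoml1 113 ± 4.34 and Stoml2, a mitochondrial member, 44.9 ± 3.41 (SD, n = 5).

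**Figure D2:**
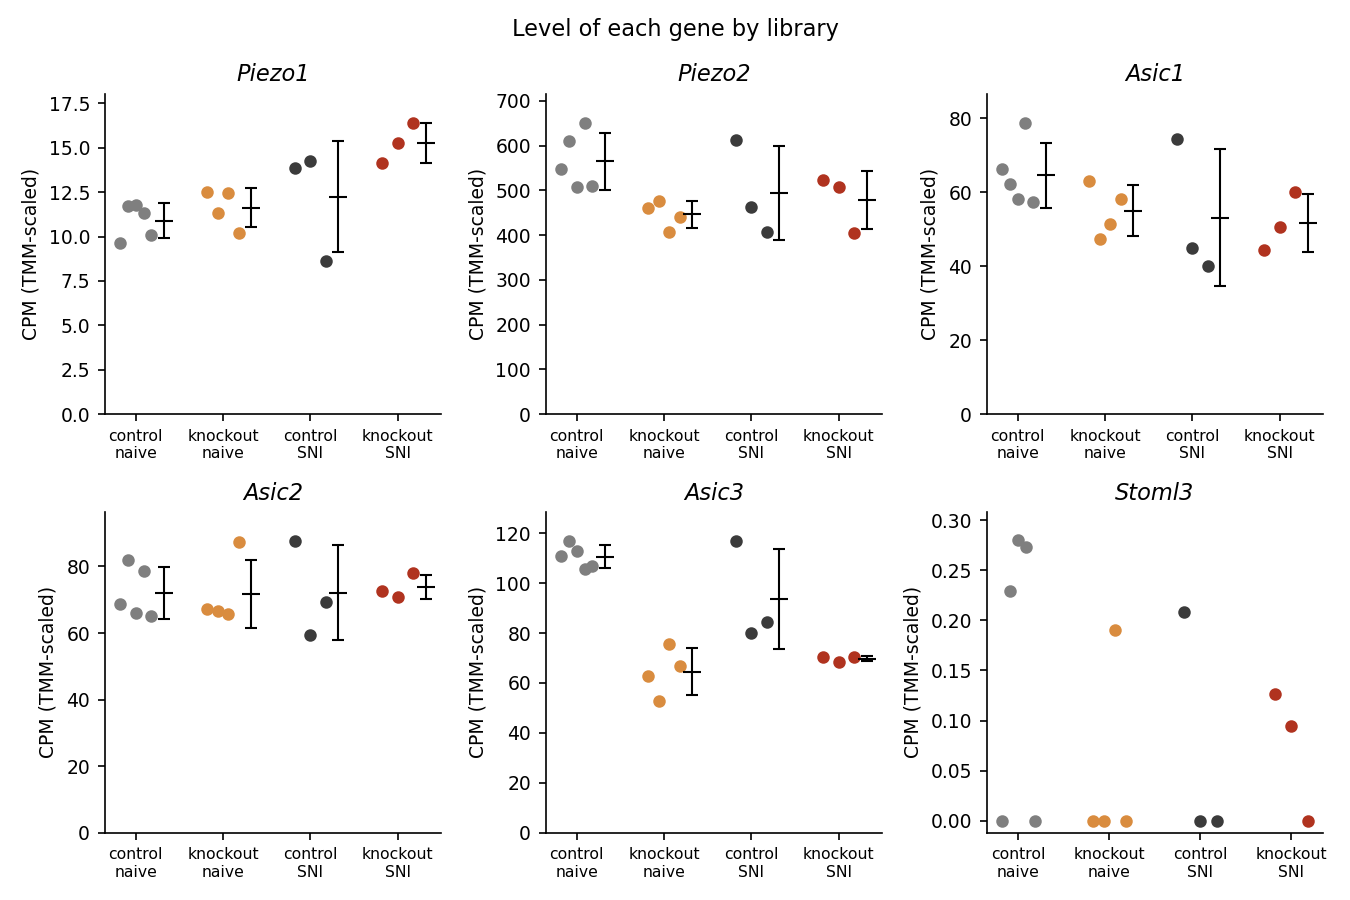
Level of each of the 6 genes in CPM scaled by library, 1 point per library, with the mean and SD of each group beside the points (no mean for Stoml3, which has 0 to 3 counts a library). All 4 knockout naive points of Asic3, at 52.9 to 75.7 CPM, lie below the 5 control naive points at 105 to 117, and control SNI replicate 15 is the highest injured control for Piezo2 and the 3 Asic genes.

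The first question was which levels depend on the cluster in uninjured ganglia. Of the 5 members tested, 1 was called (adjusted p under 0.05 over 16976 genes), Asic3, where 1.89% of all tested genes were called. Asic3 fell, and the groups did not overlap. Its levels in control naive replicates 1, 2, 3, 6 and 7 were 111, 117, 113, 105 and 107 CPM. In knockout naive replicates 4, 5, 8 and 9 they were 62.8, 52.9, 75.7 and 66.9 CPM. The control animals sat close together and each knockout animal was well below all of them. The means were 111 ± 4.54 (SD, n = 5) and 64.6 ± 9.46 CPM (n = 4), a log2 fold change of -0.77 (SE 0.112, 95% interval -1.01 to -0.54, adjusted p = 9.85e-04), or 1.71-fold lower.

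The fall of Asic3 was present in both ranges of animal number. It was -0.97 on the log2 scale among animals 1041 to 1056 (2 knockout and 3 control) and -0.57 among 1079 to 1082 (2 and 2). It was called under each of the 7 other settings tried and without any 1 of the 9 naive libraries, and the largest adjusted p was 0.00638, when replicate 4 was dropped. In bulk ganglia fewer cells of a type and less RNA per cell cannot be told apart, and this holds for every level here. Asic3 lies at chr5:24413392-24417835 on the plus strand of GRCm38, with 9 merged exons and no other annotated gene over it.

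Markers of sensory neuron classes are given beside this fall, since Asic3 is made in several of them. Of 6 markers of non-peptidergic nociceptors, Mrgprd, P2rx3, Lpar3 and Prkcq were called lower and the other two had values below 0, and their summed level was 401 to 493 CPM in knockout against 563 to 872 in control naive libraries. Of 5 proprioceptor markers Ntrk3 was called lower, with sums of 215 to 255 against 222 to 257 CPM. None of 5 peptidergic markers (1793 to 2184 against 1735 to 2104 CPM), 7 markers of A-fibre low-threshold mechanoreceptors (2095 to 2398 against 1941 to 2357) and 5 of C low-threshold mechanoreceptors (172 to 193 against 190 to 226) was called. No marker of these lists was at 0, and the part of any class in the level of Asic3 was not tested.

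Piezo2 had the next largest difference and was not called. Its levels were 548, 610, 507, 651 and 510 CPM in control naive replicates 1, 2, 3, 6 and 7. They were 461, 477, 408 and 440 CPM in knockout naive replicates 4, 5, 8 and 9. The groups did not overlap, as for Asic3, which makes 2 of 5 members where 9.63% of all tested genes did not overlap. The means were 565 ± 63.5 (SD, n = 5) and 446 ± 30.0 CPM (n = 4), a log2 fold change of -0.34 (SE 0.118, 95% interval -0.59 to -0.09, adjusted p = 0.211). It reached adjusted p = 0.0125 when only the naive libraries were fitted, where 1017 genes were called against 321 with all libraries. With controls labelled Wnt1-Cre only the log2 fold change was -0.37. Its adjusted p is not given, since that fit leaves 1 injured control. In the ranges of animal number the log2 difference was -0.24 and -0.45. Piezo2 lies at chr18:63010213-63387183, minus strand, over 56 merged exons, and no annotated gene shares its exons.

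The other tested members differed less. Asic1 was at 64.6 ± 8.74 in control and 55.0 ± 6.91 CPM in knockout naive ganglia (log2 -0.23, 95% interval -0.57 to 0.10, adjusted p = 0.663), with overlapping libraries. Asic2, the gene with the weak site, was at 72.0 ± 7.73 and 71.7 ± 10.4 CPM (log2 -0.01, 95% interval -0.25 to 0.24, adjusted p = 0.996). In 3 of its 4 knockout libraries it lay between 65.9 and 67.1 CPM, and in replicate 9 at 87.3. Piezo1 was at 10.9 ± 0.979 and 11.6 ± 1.10 CPM (log2 0.10, 95% interval -0.19 to 0.38, adjusted p = 0.892). The intervals are wide enough that equal levels are not shown.

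**Figure D3:**
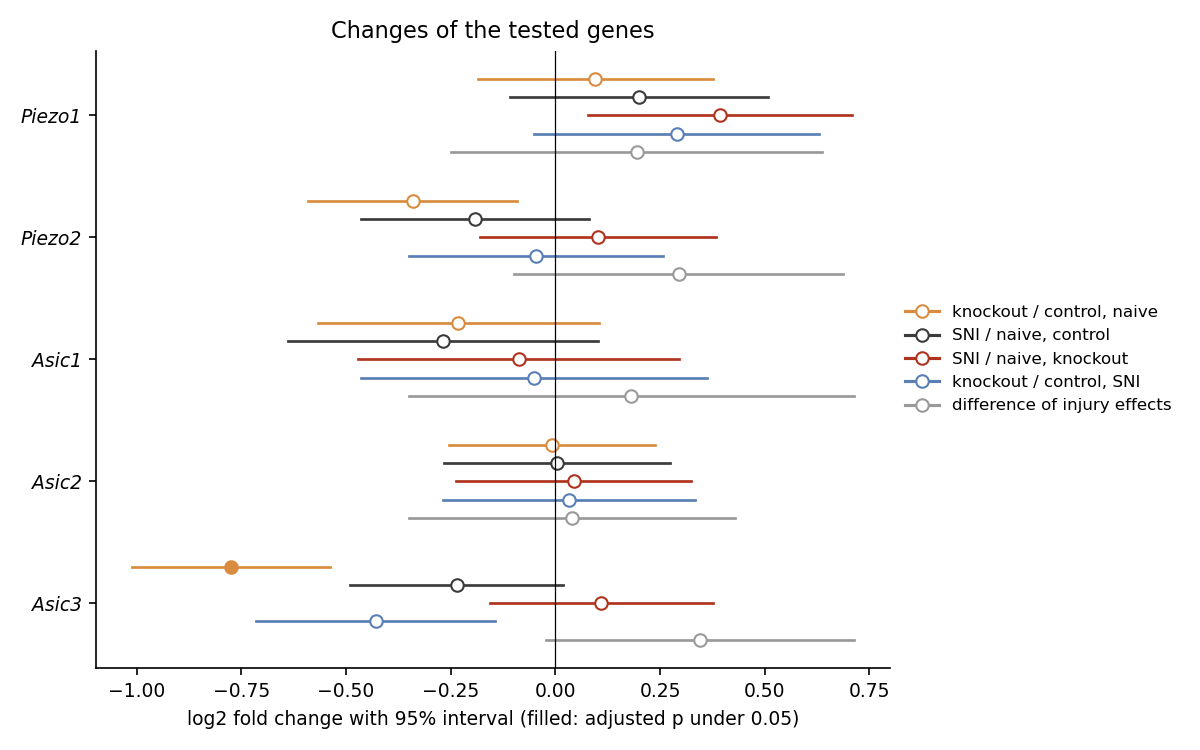
Log2 fold change of the 5 tested genes in the 4 comparisons and in the difference between the injury effects, with 95% intervals from the fit of all 15 libraries. Filled points have an adjusted p under 0.05, and the only one is Asic3 in naive animals, at -0.77.

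The make-up of the Asic transcripts differed with genotype in both conditions as a description. Asic3 made up 61.9 ± 2.71% of the summed CPM per kb of Asic1, Asic2 and Asic3 in control naive libraries (SD, n = 5, range 57.5 to 64.5%). In knockout naive libraries the share was 50.1 ± 4.10% (n = 4, 47.4 to 56.2%). After injury it was 59.7 ± 0.644% in control (n = 3, 59.0 to 60.2%) and 52.3 ± 1.89% in knockout libraries (n = 3, 50.2 to 54.0%). Every knockout library was thus below every control library in its condition. The shares are built from the same levels as the fall of Asic3, so they are not separate evidence of it. After injury Asic3 itself was not called (edgeR adjusted p = 0.118), and genotype cannot be told apart from animal number there. The Asic2 share took the opposite place, with 22.9 ± 1.49 and 31.7 ± 3.51% in control and knockout naive libraries and 26.2 ± 1.55 and 31.4 ± 0.410% after injury, though its own mean level was 72.0 and 71.7 CPM in the naive groups. The summed level was 73.8 ± 3.37 in control naive and 53.1 ± 5.37 CPM per kb in knockout naive libraries. It was 64.8 ± 14.7 in control SNI and 55.1 ± 2.33 CPM per kb in knockout SNI libraries.

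**Figure D4:**
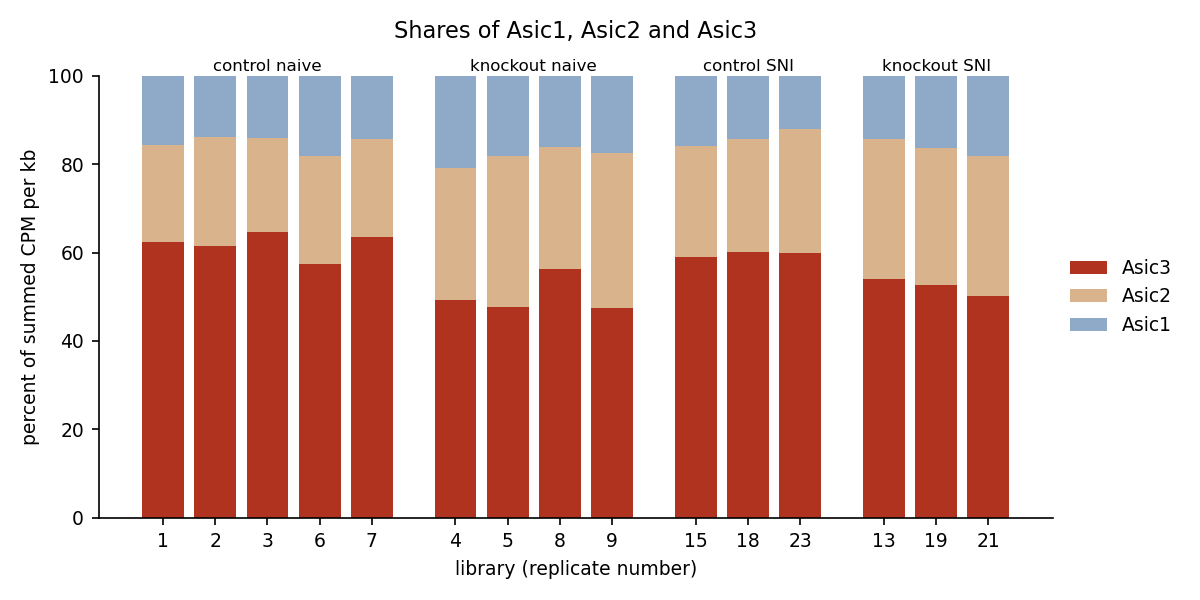
Share of Asic3, Asic2 and Asic1 in their summed CPM per kb in each library, in percent, with libraries grouped by genotype and condition and numbered by replicate. The Asic3 share is 57.5 to 64.5% in control naive and 47.4 to 56.2% in knockout naive libraries, and 59.0 to 60.2% against 50.2 to 54.0% after injury.

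Injury against naive in control animals, which uses the same 5 control naive libraries as above, asks how the ganglion answers nerve section when the cluster is present. No member was called, where 2.48% of all tested genes were called with edgeR, and none of the 5 had an unadjusted p under 0.05 (2669 genes did). No member was called with DESeq2 or limma-voom either. The libraries of every member overlapped between the groups, against 8.21% of tested genes that did not overlap.

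Control SNI replicate 15, the only injured control with Wnt1-Cre, had the highest level of 4 members. Its Asic3 level was 117 CPM, that of replicate 18 was 79.9 and that of replicate 23 was 84.4. The first equalled the highest naive library after rounding and the other two lay below all 5 naive libraries. For Asic1 the 3 libraries had 74.4, 45.0 and 40.1 CPM, for Piezo2 612, 463 and 408, and for Asic2 87.6, 59.5 and 69.3. The mean of Asic3 was 93.7 ± 20.1 CPM (SD, n = 3), a log2 fold change of -0.24 (SE 0.121, 95% interval -0.49 to 0.02, adjusted p = 0.358).

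Without replicate 15, Asic3 (log2 -0.43, adjusted p = 0.0246) and Asic1 (-0.60, adjusted p = 0.0235) were called lower after injury. The share of all tested genes called without that library is not given here, so these calls stand without a background. With replicate 15 as the only injured control and without the wt animals, Asic3 was at 0.09, Asic1 at 0.18 and Piezo2 at 0.10 on the log2 scale, none of them called. Without replicate 23, which has the high mitochondrial share, no member was called, and the log2 values were -0.16 for Asic3 (adjusted p = 0.517), -0.11 for Asic1 (0.799) and -0.07 for Piezo2 (0.825). The wt genotype and the animals cannot be told apart in this group, since each of these settings rests on 1 or 2 injured controls.

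Piezo2 had a log2 change of -0.19 with injury in control animals (95% interval -0.46 to 0.08, adjusted p = 0.488), and one of -0.38 without replicate 15 (adjusted p = 0.0629). Asic2 had a log2 change of 0.00 (-0.27 to 0.27, adjusted p = 0.994). Asic1 had a log2 change of -0.27 (-0.64 to 0.10, adjusted p = 0.472). Piezo1 was at 13.9, 14.2 and 8.63 CPM in control SNI replicates 15, 18 and 23, the last from 40 counts, against 9.65 to 11.8 CPM in naive animals. Replicates 15 and 18 were above and replicate 23 below the whole naive range. Its log2 change was 0.20 (95% interval -0.11 to 0.51, adjusted p = 0.533), and 0.37 without replicate 23 (adjusted p = 0.0974).

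Injury against naive in knockout animals asks the same question without the cluster. No member was called with edgeR, where 10.1% of all tested genes were called, nor with DESeq2 or limma-voom. Of the members 1, Piezo1, had an unadjusted p under 0.05, against 4590 of 16976 genes. Piezo1 was at 12.5, 11.3, 12.5 and 10.2 CPM in knockout naive replicates 4, 5, 8 and 9, and at 14.2, 15.2 and 16.4 CPM in knockout SNI replicates 13, 19 and 21. Each injured library was above each naive one, which held for 1 of 5 members and, in either direction, for 34.2% of all tested genes. The log2 change was 0.39 (SE 0.149, 95% interval 0.08 to 0.71, adjusted p = 0.102). It was called when only the knockout libraries were fitted (adjusted p = 0.0219), where 4438 genes were called against 1717 with all libraries. When wt animals were left out the log2 change was 0.40, and the adjusted p is not given because that fit leaves 1 injured control.

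Markers of cell types other than neurons are given beside these values. Of 10 endothelial markers Cdh5 and Flt1 were called higher and Egfl7 lower in knockout SNI against knockout naive libraries, with sums of 132 to 170 against 121 to 140 CPM. None of 6 erythroid markers was called (238 to 766 against 310 to 1239 CPM). Of 8 macrophage markers 5 were called higher and 1 had a value below 0 (232 to 295 against 134 to 179 CPM). Satellite glia had 1 of 6 markers called higher, and no marker of myelinating Schwann cells (6) or fibroblasts (5) was called. Of 8 skeletal muscle markers, a tissue that can be carried along in dissection, Ryr1 was called higher (159 to 1238 against 21.2 to 218 CPM). No marker was at 0, and their part in the Piezo1 values was not tested.

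A gene on the opposite strand, Ctu2, shares 2441 bases of exon with Piezo1 (chr8:122481698-122551329, minus strand), and the strand setting of the counting is not given in the sources used here. Ctu2, an enzyme gene of transfer RNA modification, was at 16.6 ± 1.59 in knockout naive and 18.4 ± 2.99 CPM in knockout SNI libraries (log2 0.16, adjusted p = 0.459). The count of Piezo1 is therefore uncertain where the 2 genes overlap. Its exact place among lowly expressed genes carries the same doubt.

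The acid channels and Piezo2 had small changes with injury in knockout animals. Asic3 was at 70.3, 68.6 and 70.3 CPM in knockout SNI replicates 13, 19 and 21, inside the knockout naive range of 52.9 to 75.7 (log2 0.11, 95% interval -0.16 to 0.38, adjusted p = 0.597). Piezo2 was at 524, 508 and 405 CPM (log2 0.10, 95% interval -0.18 to 0.38, adjusted p = 0.647). Asic1, at 44.4, 50.6 and 60.0 CPM, had a log2 change of -0.09 (-0.47 to 0.30, adjusted p = 0.782). Asic2, at 72.5, 70.9 and 78.0 CPM, had one of 0.04 (-0.24 to 0.32, adjusted p = 0.859).

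The effect of the cluster was then read in injured animals, from libraries that the injury comparisons also use. The 2 injured groups carry animal numbers from separate ranges, and genotype cannot be told apart from whatever those ranges stand for. No member was called with edgeR, where 1.04% of all tested genes were called, and 1 of 5 (Asic3) had an unadjusted p under 0.05, as did 3862 genes. The 3 knockout libraries of Asic3 (68.6 to 70.3 CPM) lay below the 3 control libraries (79.9 to 117), and Asic3 was the only member without overlap, which 16.2% of all tested genes showed. The log2 difference was -0.43 (SE 0.135, 95% interval -0.71 to -0.14, adjusted p = 0.118). DESeq2, which called 906 genes against 177 with edgeR, gave -0.43 with an adjusted p of 0.0486, and limma-voom -0.41 with 0.148. With only the injured libraries fitted the difference was -0.43 (adjusted p = 0.553), and no gene at all was called. Without control SNI replicate 15 the difference was -0.23 (adjusted p = 0.167), and with that animal as the only control -0.75. Without replicate 23 it was -0.49 (adjusted p = 0.115).

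None of the other members was called after injury with all libraries. Piezo1 was at 15.3 ± 1.13 in knockout and 12.3 ± 3.14 CPM in control SNI ganglia (SD, n = 3 each, log2 0.29, 95% interval -0.05 to 0.63, adjusted p = 0.29). Piezo2 was at 479 ± 64.5 and 494 ± 106 CPM (log2 -0.05, -0.35 to 0.26, adjusted p = 0.872). Asic1 was at 51.6 ± 7.88 and 53.2 ± 18.5 CPM (log2 -0.05, -0.46 to 0.36, adjusted p = 0.898). Asic2 was at 73.8 ± 3.72 and 72.1 ± 14.3 CPM (log2 0.03, -0.27 to 0.33, adjusted p = 0.913). These values moved with the choice of controls, without a call. Without replicate 23, Piezo1 was at 0.13 (adjusted p = 0.732), Piezo2 at -0.16 (0.668) and Asic1 at -0.20 (0.724) on the log2 scale. Without replicate 15, Piezo2 was at 0.14 (adjusted p = 0.488), Asic1 at 0.28 (0.237) and Asic2 at 0.21 (0.308). With replicate 15 as the only injured control, Asic1 was at -0.53, Piezo2 at -0.36, Asic2 at -0.25 and Piezo1 at 0.14. The SD of each of the 5 was larger in control SNI than in knockout SNI libraries.

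The difference between the injury effects of knockout and control tests whether genotype alters the response. No member and no gene at all was called with edgeR (0% of 16976), although 2281 genes and none of the members had an unadjusted p under 0.05, and DESeq2 called 11 genes and no member. The difference was 0.35 on the log2 scale for Asic3 (95% interval -0.02 to 0.71, adjusted p = 0.382), 0.29 for Piezo2 (-0.10 to 0.69, adjusted p = 0.455) and 0.19 for Piezo1 (-0.25 to 0.64, adjusted p = 0.669). It was 0.18 for Asic1 and 0.04 for Asic2. Without control SNI replicate 15 the value for Asic3 was 0.54 (adjusted p = 0.043), and 1235 genes were then called. It was 0.29 without replicate 23 (adjusted p = 0.704), 0.24 without replicate 18 (0.473) and 0.04 with replicate 15 as the only injured control. For Piezo2 the value was 0.48 without replicate 15 (adjusted p = 0.069) and 0.18 without replicate 23 (0.795). Piezo1 and Asic1 both stood at 0.04 without replicate 23 (adjusted p = 0.978 and 0.984). The knockout effect on Asic3 in naive animals is thus not shown to differ from that after injury with all libraries in the fit.

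Other genes of mechanical and acid sensing were read from lists of related channels, sensors and partners. Of 18 other mechanical channels 16 were tested, and Tmc1 and Tmc2, channel genes of the inner ear hair cell, were not. Of 14 other acid sensors 9 were tested, and of 13 stomatin relatives and channel partners 11. The remaining acid-sensing subunits were barely counted, with 20 counts of Asic4 over the control naive, 19 over the knockout naive, 9 over the control SNI and 15 over the knockout SNI libraries. Asic5 had none in any library. In naive animals no gene of these lists was called in knockout against control, where 1.89% of all tested genes were, and the medians were -0.08, -0.03 and 0.09 on the log2 scale against 0.00 over all tested genes. No gene of them was called in knockout against control after injury either, where 1.04% of all genes were, with medians of 0.05, 0.04 and 0.00 against -0.01.

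With injury, 1 gene of these 3 lists was called in control animals, where 2.48% of all tested genes were called, and 4 in knockout animals, where 10.1% were. In control animals it was 1 of the 9 acid sensors, Gpr65, a proton-sensing receptor of immune cells, which rose from 1.15 ± 0.336 (SD, n = 5) to 3.64 ± 2.13 CPM (n = 3, log2 1.53, SE 0.352, adjusted p = 0.026). The 3 injured libraries ranged from 1.98 to 6.04 CPM, above the naive range of 0.788 to 1.66. That call was lost without control SNI replicate 23 (log2 1.06, adjusted p = 0.0762) or 18 (0.055), and without control naive replicate 1, 2, 3 or 6 (0.0512 to 0.0608). It was also lost with limma-voom (adjusted p = 0.055), with only the control libraries fitted (0.109) and with a term for animal number range (0.0593). That term sets naive animals 1079 to 1082 apart from all others, so it does not separate injury from animal number. With Wnt1-Cre controls only the log2 change was 0.95, from a fit that leaves 1 injured control, so it is not read as a kept call. Of 8 macrophage markers 7 were called higher in the same comparison, with sums of 189 to 306 against 115 to 137 CPM, and their part in the Gpr65 values was not tested.

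In knockout animals 1 of 16 mechanical channels rose and none fell with injury. Tmem63c, of a family of osmotically gated channels, went from 102 ± 4.66 (SD, n = 4) to 153 ± 18.9 CPM (n = 3, log2 0.59, SE 0.124, adjusted p = 0.00736), without overlap. In control animals its log2 change was not called, with 115 ± 12.6 and 137 ± 25.4 CPM. Of the acid sensors Kcnk1, a pH-sensitive potassium leak channel, fell from 57.8 ± 7.39 to 42.8 ± 5.94 CPM (log2 -0.43, adjusted p = 0.0218), with overlapping libraries. Of the stomatin relatives and partners, 2 of 11 fell. Stoml2 went from 47.8 ± 3.66 to 34.5 ± 3.59 CPM (log2 -0.47, adjusted p = 0.0166) and Nipsnap1, a mitochondrial protein gene, from 112 ± 8.71 to 86.5 ± 3.25 CPM (log2 -0.37, adjusted p = 0.0365). The calls of Kcnk1, Stoml2 and Nipsnap1 were lost without knockout SNI replicate 19 (adjusted p = 0.111, 0.117 and 0.153). Kcnk1 was called only without knockout SNI replicate 21 or knockout naive replicate 5, and Nipsnap1 only without knockout naive replicate 4. Stoml2 was also lost without knockout naive replicate 5 or 8, and Tmem63c was kept without any 1 library (adjusted p up to 0.0492). With the term for animal number range, which does not separate injury from animal number, Kcnk1 (adjusted p = 0.082) and Nipsnap1 (0.12) were not called. Nipsnap1 was not called with no filter on low counts either (0.0552). Whether these injury changes differ between genotypes was tested by the same difference, and no gene was called.

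**Figure D5:**
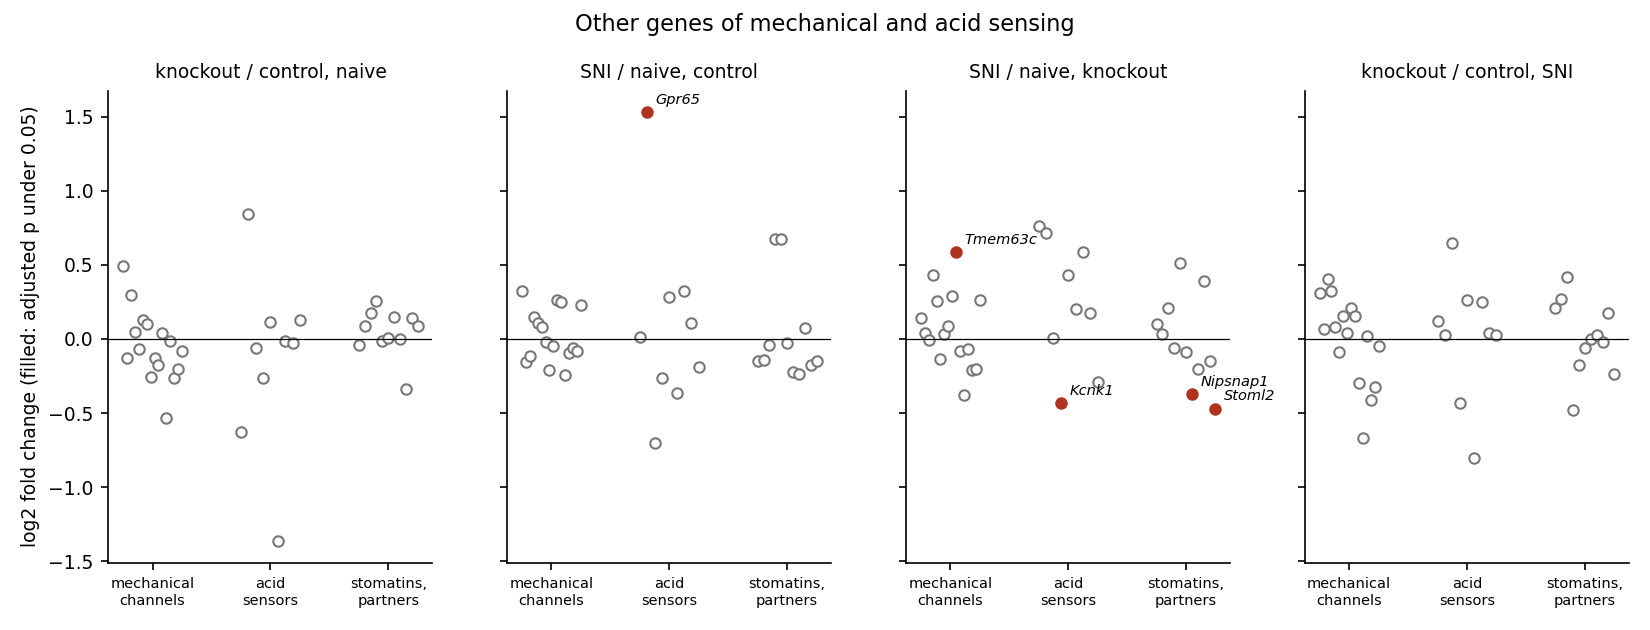
Log2 fold change of each tested gene of the lists of other mechanical channels (16 genes), other acid sensors (9) and stomatin relatives and partners (11) in the 4 comparisons. Filled, named points have an adjusted p under 0.05, and none is in either comparison of knockout with control.

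The genes whose pattern over the 15 libraries was most like that of each member, among 14127 others with a mean of at least 1 CPM, are given as a description. All points share the libraries' scaling and depth, and the top of so many genes is high by selection. Asic3 was followed most closely by Pls1 (Pearson r = 0.93), an actin-bundling protein gene, by Zfand2a (0.93) and by Kif16b (0.92), a kinesin gene. Their deviations from the group means correlated less with those of Asic3, at 0.79, 0.67 and 0.59. Piezo2 was most like Prune2, Arfgef2 and Il6st, the shared receptor subunit of the interleukin-6 family (r = 0.91 each), and there the deviations within groups correlated at 0.96, 0.95 and 0.97. Asic1 was most like Whrn, a marker of proprioceptors, Astn2 and Sema7a (r = 0.90 each). Asic2 was most like Nol3 (0.92), Svop (0.87), a synaptic vesicle gene, and Pnkd (0.84), and Piezo1 like Wipi1 (0.93), Arhgef2 (0.92) and B4galnt4 (0.91).

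Among the members themselves the highest correlations over the 15 libraries were those of Piezo2 with Asic3 (r = 0.63) and with Asic1 (0.62). Asic1 correlated with Asic2 and Asic3 at 0.53 each. Piezo1 followed none of the other 4, with r from -0.27 to 0.07. With 15 libraries in 4 groups these values mix differences between groups with those between animals.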

How the data were processed

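Messenger RNA of lumbar dorsal root ganglia was measured by bulk RNA sequencing in 15 mice, after Trizol extraction and a stranded library kit, per the labels' protocols. The authors deposited unnormalised read counts per Ensembl gene (39179 rows, all whole numbers), with 1 column per animal. Per the submitters' processing notes the build was GRCm38 and the tools were HTSeq 0.6.1, TopHat2 2.0.4, DESeq2, Cufflinks and SAMtools, with no order stated. The annotation release, strand setting and time after injury: not given in the sources used here. Symbols and lengths are from GENCODE M21 (GRCm38), which named 37607 identifiers.

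Counts were fitted as 4 group means over all libraries with edgeR 4.0.16 (TMM, filterByExpr by group with a minimum count of 10, robust quasi-likelihood F test, two-sided, 11 residual degrees of freedom), with Benjamini-Hochberg adjustment over 16976 genes. A gene is called at an adjusted p under 0.05. CPM are scaled by TMM, and log2 CPM use a prior count of 2. The SE is the size of the log2 change divided by the square root of F, and 95% intervals use the moderated degrees of freedom. The floor for a count of 0 is 3 counts. Alternatives used RLE factors, DESeq2 1.42.0, limma-voom (limma 3.58.1), no filter, pairwise fits, Wnt1-Cre controls only, a term for animal number range, and each library left out. The range term sets naive animals 1079 to 1082 apart from all other animals. The fit was tested on simulated data. The members, gene lists and tests were chosen with earlier results of these data known. Named genes are the members, the genes of the related lists called in any comparison, and for each member the 3 genes most correlated with it. A few untested or stomatin genes were named after their values were seen. R 4.3.3 and Python 3.11.15 were used.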

Additional observations from a re-analysis of the deposited data

Results flagged for a closer look

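Of 12 sets of 4 or 5 naive libraries examined, 2 held a library far from its group, where chance gives about 1 in 20 for normally spread values. Knockout naive replicate 9 had 87.3 CPM of Asic2, while the other 3 knockout naive libraries had 65.9 to 67.1. Leaving it out moved the log2 difference of Asic2 between knockout and control naive animals from -0.01 to -0.11, not called in either case. Knockout naive replicate 8 had 0.19 CPM of Stoml3 from 2 counts, while the other 3 had no count, a gap within what a count of 0 allows. The rule flags any set in which 1 library alone has a count, so the rate of 1 in 20 does not apply to Stoml3.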

How the results depend on the processing

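The fall of Asic3 in naive knockout animals was called in all 7 other settings and without any 1 of the 9 naive libraries, with log2 values of -0.85 to -0.69. The number of members called moved elsewhere. In naive animals it was 1 by default and 2 (with Piezo2) when only the groups compared were fitted. That fit called 1017 genes against 321 by default. For injury in knockout animals the same setting gave 1 (Piezo1) in place of 0, with 4438 genes called against 1717. For knockout against control after injury the number was 1 (Asic3) with DESeq2, where 906 genes were called against 177. With only the groups compared it was 0 there, and no gene was called. With controls restricted to Wnt1-Cre the log2 values were -0.37 for Piezo2 (naive), 0.40 for Piezo1 (injury, knockout) and -0.75 for Asic3 (knockout against control, SNI). The number of members called in that setting is not given, since it leaves 1 injured control. Leaving out 1 library gave 0 to 2 members for injury in control animals and 0 to 1 for the difference between injury effects, in both cases through control SNI replicate 15. The cause of these moves was not tested, though the Wnt1-Cre setting leaves 1 injured control, whose spread is taken from the other groups.

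Sign changes were all of values that were not called. With Wnt1-Cre controls only, injury in control animals gave 0.10 for Piezo2, 0.18 for Asic1 and 0.0857 for Asic3, knockout against control after injury gave -0.25 for Asic2, and the difference between injury effects -0.25 for Asic1 and -0.21 for Asic2. Limma-voom gave -0.0067 for Asic2 with injury in control animals. With 1 library left out, Asic2 ranged from -0.11 to 0.0485 (knockout against control, naive), -0.17 to 0.13 (injury, control), -0.0933 to 0.21 (knockout against control, SNI) and -0.0861 to 0.21 (difference). Asic1 ranged from -0.21 to 0.0086 (injury, knockout) and -0.20 to 0.28 (knockout against control, SNI), and Piezo2 from -0.16 to 0.14 in the latter. RLE factors changed no call of a member. No paired analysis was possible because each replicate number belongs to 1 library. Depth kept Stoml3, at 14 counts in all, from being tested.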
